A study of Mus musculus with 89 samples.

Results

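H19 and Igf2 are 2 neighbouring imprinted genes, followed here through the 20 RNA-seq libraries of mouse embryonic stem cells (ESCs) that were analysed, out of 54146 gene rows in the table. They were found by their symbols and were chosen because both stood much higher in cells without functional Nr5a2, so their levels across that contrast are described without a test. Every library derives from EKOiE cells, in which both endogenous copies of Esrrb are disrupted and a doxycycline (Dox)-inducible, Flag-tagged Esrrb transgene takes their place, so that the control cells also carry the Esrrb knockout. The states are EKOiE cells kept in 1 µg/ml Dox (+E+N), the same cells 2 days after Dox was removed (−E), EKOiE NrKO cells, which carry Cas9 deletions in the exon encoding the DNA-binding domain of Nr5a2 on both alleles, kept in Dox (−N), and NrKO cells 2 days after Dox removal (−E−N). Each state was cultured on gelatine in serum with LIF (FCS/LIF, 2 replicates) and in medium with LIF and inhibitors of Mek and Gsk3 (2i/LIF, 3 replicates). The labels do not name the NrKO clone, and the methods describe RNA-seq reads over the deletions for a single clone, so that what is particular to that clone cannot be told apart from what the loss of Nr5a2 does, nor can medium be told apart from culture batch. Figure legends of the study call the replicates independent experiments, without saying what was repeated, and the p-values measure the spread between these libraries.

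Imprinted genes are transcribed from the copy inherited from one parent. H19, a spliced non-coding RNA and the host of a microRNA, is expressed from the maternal copy, and Igf2, a growth factor of the insulin family that acts through the receptor Igf1r, from the paternal copy. Between them lies a control region that is methylated on the paternal chromosome. On the maternal chromosome the insulator protein CTCF binds it and keeps the enhancers beyond H19 from reaching Igf2. Both genes are active in extra-embryonic and foetal tissues. Gene-level counts of these libraries do not separate the parental copies, and methylation was not measured in them.

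H19 (ENSMUSG00000000031) occupies chr7:142575529-142578143 of mm10, is transcribed from the minus strand and has 7 annotated transcripts in GENCODE. Igf2 (ENSMUSG00000048583), at chr7:142650766-142666816, has the same orientation and 9 transcripts, and its annotated start is 88673 bp upstream of that of H19. The 10 kb upstream of H19 were read from the mm10 genome of RefSeq to show the sequence features of the control region. The core CTCF motif was searched on both strands as CCGC, any 2 bases, GG, any base and GGCAG, 14 letters in all. It occurred 4 times, each time on the minus strand and outside annotated exons of both genes. The matches are written 5′ to 3′ on that strand, with the motif in capitals, from the farthest to the nearest to H19.
chr7:142582024-142582057, 3.89 kb upstream: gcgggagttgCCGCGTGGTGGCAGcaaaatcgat
chr7:142581780-142581813, 3.65 kb upstream: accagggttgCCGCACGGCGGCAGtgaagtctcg
chr7:142580754-142580787, 2.62 kb upstream: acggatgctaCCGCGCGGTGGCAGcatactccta
chr7:142580299-142580332, 2.17 kb upstream: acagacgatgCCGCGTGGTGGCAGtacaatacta
Of 14164 windows of 10 kb without unread bases along chromosome 7, 52 (0.367%) held at least 1 such match. Only 1 held 4, and that window is the one with the matches above, so the count includes the region itself. The search took exact matches to these letters only, so the share of windows is not that of CTCF sites in general. The single site recognised by both Esrrb and Nr5a2, searched as TCAAGGNCA on both strands, occurred 1 time in the same 10 kb, and 59.5% of the windows held at least 1. Its match lay 6.18 kb upstream, with the site in capitals.
chr7:142584317-142584345, 6.18 kb upstream: ccccacaattTCAAGGCCAaagtcaaggt
RefSeq lists 4 promoters for Igf2, and none held either motif, against 0.122% of all 32851 promoters of 300 bp for the CTCF core and 1.62% for the Esrrb and Nr5a2 site. Such matches are descriptions of the letters and say nothing of binding.

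The exons of H19 contain Mir675, and Mir483 lies within Igf2. The mature forms, credited to RefSeq, are given with the seed (bases 2 to 8), which sets target choice, in capitals, and the 4 seeds differ from each other.
mmu-miR-675-5p: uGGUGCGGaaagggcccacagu
mmu-miR-675-3p: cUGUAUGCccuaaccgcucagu
mmu-miR-483-5p: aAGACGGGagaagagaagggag
mmu-miR-483-3p: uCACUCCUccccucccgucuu
Both precursor rows held 0 counts in the 20 libraries. These are poly-A libraries, in which microRNAs are not captured, and the levels of the microRNAs are therefore unknown.

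Totals of estimated counts ran from 36514172 to 45443379 per library in serum and from 26653035 to 32526534 in 2i/LIF, and levels are given as normalised read counts scaled to library size (CPM). After Dox removal in FCS/LIF, Esrrb fell by 2.18 on the log2 scale in EKOiE cells. In NrKO cells it fell by 2.99. In 2i/LIF it fell by 1.74 in NrKO cells, while the log2 change in EKOiE cells was −0.46 ± 0.16 (SE, adjusted p = 0.116) and did not pass the test. Nr5a2 transcripts remained in NrKO cells, with a log2 change against EKOiE cells of −0.55 ± 0.08 in FCS/LIF and −0.05 ± 0.21 in 2i/LIF, neither past the test. The count of a gene adds the transcripts of the transgene and of disrupted copies, so these rows do not measure functional protein. All 10 pluripotency markers of a fixed list, among them Pou5f1, Sox2 and Nanog, were detected in all 8 groups, with summed levels between 2410 and 6289 CPM.

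H19 RNA was abundant in serum and low in EKOiE cells in 2i/LIF, and stood higher in the NrKO line in both media. In FCS/LIF the +E+N libraries held 182 and 231 CPM and the −E libraries 242 and 358 CPM. H19 reached 823 and 1098 CPM in −N libraries, against 1496 and 1913 CPM in −E−N libraries. No 2 of these 4 groups overlapped, and each NrKO library lay above each EKOiE library. In 2i/LIF H19 stood at 1.48, 1.23 and 1.99 CPM in +E+N and at 3.57, 2.73 and 5.40 CPM in −E cells. In −N cells it reached 271, 245 and 232 CPM, and in −E−N cells 716, 641 and 1334 CPM. In CPM every NrKO library in 2i/LIF was thus at or above the +E+N libraries in serum. Per length (TPM) the −N libraries in 2i/LIF (133 to 144) overlapped with the +E+N libraries in serum (102 to 137). The highest value of the −E−N group in 2i/LIF belonged to replicate 3.

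Igf2 followed the same order within each medium over a smaller range in serum. In FCS/LIF it stood at 289.8 and 354 CPM in +E+N and at 327 and 450.1 CPM in −E libraries. Igf2 was at 486 and 696 CPM in −N libraries and at 771 and 1132 CPM in −E−N libraries. The +E+N and −E libraries overlapped, and the other neighbouring groups did not. In 2i/LIF it was at 0.771, 0.706 and 0.906 CPM in +E+N and at 0.858, 1.04 and 1.35 CPM in −E cells, which also overlapped. The −N libraries held 73.1, 65.3 and 54.5 CPM and the −E−N libraries 161, 151 and 233 CPM. Unlike H19, Igf2 in the NrKO line in 2i/LIF did not reach the level of any serum library, the highest value being 233 CPM against a lowest of 289.8 CPM.

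**Figure D1:**
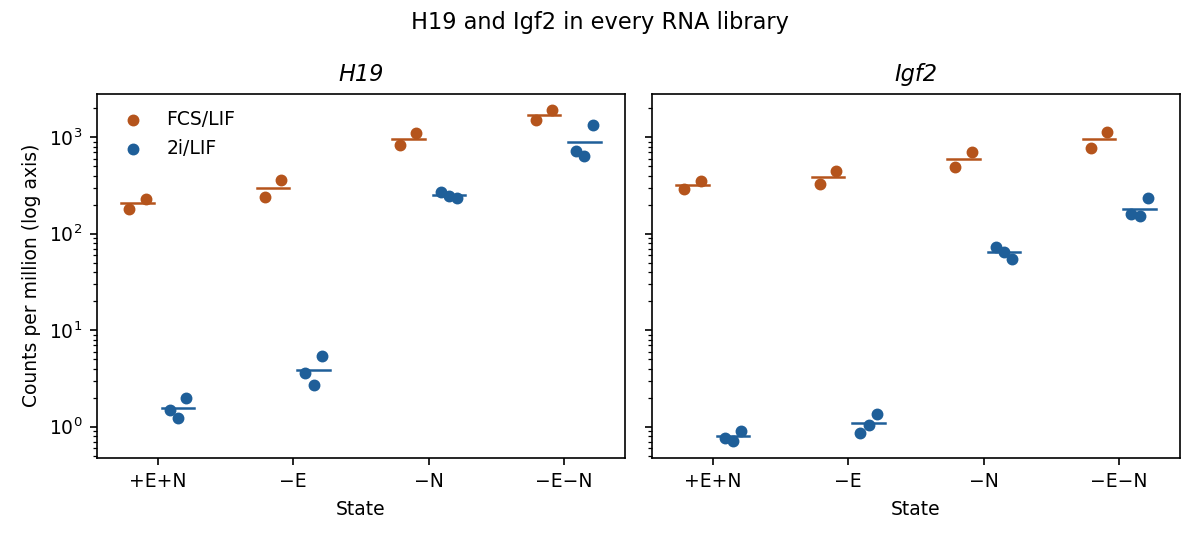
Normalised level of H19 and Igf2 (CPM, log axis) in each of the 20 libraries, by state, with FCS/LIF in orange and 2i/LIF in blue. Points are libraries and lines are group means (n = 2 in FCS/LIF, n = 3 in 2i/LIF), and the NrKO states (−N and −E−N) sit above the EKOiE states in both media, by far more in 2i/LIF.

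Ordered by mean CPM ± SD, H19 ran from −E−N in FCS/LIF (1705 ± 295, n = 2) through −N in FCS/LIF (961 ± 194, n = 2), −E−N in 2i/LIF (897 ± 380, n = 3), −E in FCS/LIF (299.9 ± 81.6, n = 2), −N in 2i/LIF (249 ± 19.8, n = 3) and +E+N in FCS/LIF (206 ± 35.1, n = 2) to −E in 2i/LIF (3.90 ± 1.36, n = 3) and +E+N in 2i/LIF (1.56 ± 0.387, n = 3). Libraries of −N in FCS/LIF overlapped with those of −E−N in 2i/LIF, and those of −E in FCS/LIF with those of −N in 2i/LIF. For Igf2 all 4 serum groups came first, from 951 ± 255 CPM in −E−N to 322 ± 45.2 CPM in +E+N (n = 2 each), and were followed by −E−N (181.6 ± 44.7), −N (64.3 ± 9.35), −E (1.08 ± 0.249) and +E+N (0.794 ± 0.102) in 2i/LIF (n = 3 each). Per length, H19 in serum stood at 119 ± 24.3 TPM in +E+N and 1086 ± 170 TPM in −E−N cells (n = 2 each), ranks 1047 and 147 of the 25580 and 25574 genes detected. In 2i/LIF the same states gave 0.913 ± 0.188 and 513 ± 221 TPM (n = 3 each), ranks 13052 and 244.

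The line contrast was the one the genes were chosen on. In FCS/LIF, −N minus +E+N gave a log2 fold change of 2.20 ± 0.22 (SE) for H19, the 6th highest of 15636 genes, and 0.86 ± 0.23 for Igf2, the 320th. In this comparison 0.173% of genes passed the call limits, an adjusted p under 0.01 and a fold change over 1.5. In 2i/LIF the same contrast gave 7.30 ± 0.35 for H19 (158-fold) and 6.32 ± 0.23 for Igf2 (80.1-fold), the 5th and 8th highest of 14355 genes, where 3.65% of genes passed, or 7.77% when the replicate number was a block in the fit. After Dox removal, −E−N minus −E gave 2.51 ± 0.22 and 1.29 ± 0.23 in FCS/LIF, where 5.05% of genes passed, and 7.85 ± 0.34 and 7.39 ± 0.23 in 2i/LIF, where 13.1% did. Both comparisons place H19 above Igf2 in each medium. The effect of the line differed with Dox by 0.31 ± 0.30 for H19 and 0.43 ± 0.32 for Igf2 in FCS/LIF, and by 0.55 ± 0.48 and 1.07 ± 0.38 in 2i/LIF (log2, the line contrast without Dox less that with Dox). No test is given for these values, which contain the contrast used for the choice.

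Removal of Dox, which the choice of genes did not use, raised both genes in NrKO cells in 2i/LIF. For H19 −E−N minus −N was 1.87 ± 0.25 (log2 ± SE, adjusted p = 3.41e-04), a 3.65-fold rise, and for Igf2 1.52 ± 0.16 (adjusted p = 6.26e-05), a 2.87-fold rise, both called by the quasi-likelihood test of edgeR with Benjamini-Hochberg adjustment. In this comparison 6.76% of all genes were called, or 11.3% with the replicate block. In same-numbered pairs H19 rose by 2.64, 2.61 and 5.75 times and Igf2 by 2.20, 2.31 and 4.27 times. Replicate 3 of −E−N, which also had the lowest Esrrb of its group (104 CPM against 161 and 171), gave the largest ratio for both genes, and without it the log2 changes were the lowest of those that left out 1 library, 1.46 and 1.29, and still called.

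In FCS/LIF the change in NrKO cells after Dox removal did not reach the call limit in the fit without a replicate block. For H19 the log2 change was 0.83 ± 0.21 (adjusted p = 0.0163) and for Igf2 0.69 ± 0.23 (adjusted p = 0.0456), while 10.1% of all genes were called. Both −E−N libraries nevertheless lay above both −N libraries for either gene. The ratios in same-numbered pairs were 1.82 and 1.74 for H19 and 1.59 and 1.63 for Igf2.

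In EKOiE cells Dox removal changed neither gene past the test. In FCS/LIF, −E minus +E+N was 0.52 ± 0.21 for H19 (adjusted p = 0.118) and 0.25 ± 0.23 for Igf2 (adjusted p = 0.475), where 5.76% of genes were called. In 2i/LIF it was 1.32 ± 0.40 for H19 (adjusted p = 0.0770) and 0.45 ± 0.34 for Igf2 (adjusted p = 0.508), where 1.55% were called, or 4.15% with the block. H19 was 2.42, 2.23 and 2.72 times higher in the same-numbered −E libraries, at 76 to 156 counts against 33 to 57. This change was called by DESeq2 (adjusted p = 0.00619) and when replicate 3 of −E−N in 2i/LIF was left out of the fit (adjusted p = 0.00873). The response to Dox removal did not differ between media past the test. FCS/LIF minus 2i/LIF was −0.78 ± 0.51 for H19 and −0.18 ± 0.52 for Igf2 in EKOiE cells, and −1.02 ± 0.37 and −0.81 ± 0.29 in NrKO cells (adjusted p = 0.472, 0.912, 0.137 and 0.131). With the replicate block the last, −0.79 ± 0.19, passed (adjusted p = 0.00984), where 981 of 16147 genes passed in all. That fit also pairs the FCS/LIF libraries by number, which the labels do not tie to a shared culture. Without the block 1.06% of 16147 genes passed in the comparison of EKOiE cells and 1.74% in that of NrKO cells. The 95% intervals reached from −1.78 to 0.22 for H19 in EKOiE cells and from −1.74 to −0.29 in NrKO cells.

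**Figure D2:**
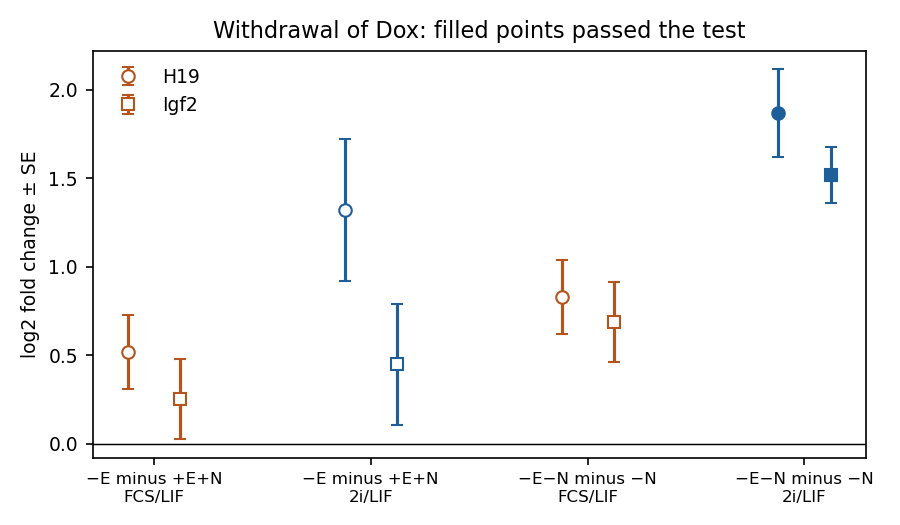
Change of H19 (circles) and Igf2 (squares) after Dox removal, as log2 fold change with bars of 1 SE, in EKOiE (−E minus +E+N) and NrKO cells (−E−N minus −N) in FCS/LIF (orange, n = 2) and 2i/LIF (blue, n = 3). All 8 changes are above 0, and the filled points, both genes in NrKO cells in 2i/LIF, are those that passed the call limits.

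Both genes were far lower in 2i/LIF than in serum. In +E+N cells, 2i/LIF minus FCS/LIF was −7.04 ± 0.36 for H19 (adjusted p = 8.62e-11) and −8.65 ± 0.30 for Igf2 (adjusted p = 1.12e-12), the 68th and 21st lowest of 16147 genes, in a comparison where 34.7% of genes were called. In −N cells the same contrast was −1.95 ± 0.26 for H19 (adjusted p = 7.16e-06) and −3.20 ± 0.21 for Igf2 (adjusted p = 1.86e-09), with 31.6% of genes called. The change of the medium effect with the line was not tested. Both medium contrasts use libraries of the line contrast on which the genes were chosen. The +E+N libraries in 2i/LIF are the low side of that contrast, so these p-values and ranks are not independent of the choice. In each state the 2i/LIF libraries of Igf2 lay below the FCS/LIF libraries, and so did those of H19.

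The balance between the genes also moved with line and medium. The ratio of H19 TPM to Igf2 TPM within a library was 0.720 and 0.749 in +E+N and 0.867 and 0.926 in −E cells in FCS/LIF, so that Igf2 was the more abundant there. NrKO cells gave 1.89 and 1.83 with Dox (−N), then 2.21 and 1.90 without (−E−N). In 2i/LIF H19 was the more abundant in all 12 libraries. The ratio lay between 1.91 and 2.57 in +E+N, between 2.81 and 3.30 in −E, between 3.81 and 4.72 in −N and between 4.59 and 6.01 in −E−N cells. Of the neighbouring states only −N and −E−N in 2i/LIF overlapped. In +E+N cells in 2i/LIF the ratio rests on 33 to 57 counts of H19 and 19 to 26 of Igf2.

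**Figure D3:**
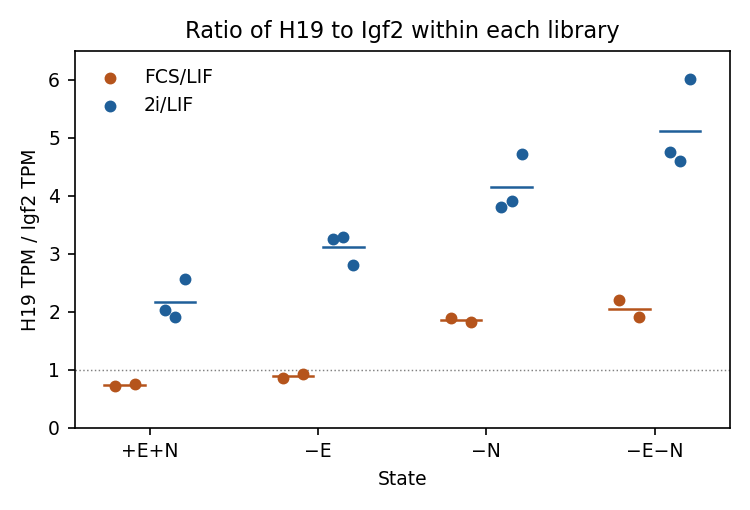
Ratio of H19 TPM to Igf2 TPM in each library, by state, with FCS/LIF in orange and 2i/LIF in blue. Points are libraries, lines are group means and the dotted line marks equal levels, which only the FCS/LIF libraries of EKOiE cells lie below.

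Within groups, deviations of log2 CPM from the group mean had a Pearson r of 0.86 over 20 libraries, as a description of points that share their library and its depth. The order was not the same in every group, since in −E cells in 2i/LIF replicate 1 held more H19 and less Igf2 than replicate 2. In FCS/LIF replicate 2 held more of both genes than replicate 1 in all 4 states.

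The genes around H19 and Igf2 were looked at to see how far the pattern extended. Of 30 annotated genes within 300 kb of either gene, all had a row, 12 including H19 and Igf2 had at least 20 counts in every replicate of a group, and 13 never exceeded 3 counts. Ins2, an insulin gene of the same imprinted domain, never exceeded 6 counts, and Nctc1, a non-coding gene beyond H19, never exceeded 1. Mrpl23, a mitochondrial ribosomal protein whose start lies at −45.5 kb from that of H19, stood at 31.7 ± 1.88 CPM in +E+N and 32.3 ± 2.23 CPM in −N cells in FCS/LIF (log2 change 0.01 ± 0.08, adjusted p = 0.971). In 2i/LIF it stood at 16.0 ± 1.34 and 19.8 ± 1.33 CPM (0.30 ± 0.11, adjusted p = 0.124), and rose in −E−N against −E cells by 0.65 ± 0.11 (adjusted p = 9.59e-04). Ctsd, a lysosomal protease further out, changed by 0.07 ± 0.09 in FCS/LIF and −0.21 ± 0.06 in 2i/LIF between −N and +E+N, and passed in neither.

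Igf2os is an RNA antisense to Igf2. In 2i/LIF it had 3, 5 and 3 counts in +E+N and 0, 1 and 2 in −E libraries, against 120, 137 and 115 counts in −N libraries. It had 433, 403 and 774 counts in −E−N libraries. It passed the filter in 2i/LIF through the NrKO libraries alone, so the fitted −N minus +E+N value of 5.12 ± 0.40 (log2) is a description with no test, as is the 0.90 ± 0.28 in FCS/LIF. Between −N and −E−N cells in 2i/LIF the log2 change was 2.01 ± 0.26 (adjusted p = 3.31e-04). Gm49394, annotated over Igf2 on the same strand, had at most 596 counts in FCS/LIF and 41 in 2i/LIF. Reads of these overlapping rows may have been divided between them and Igf2 by the counting, and whether strand was used in it is not stated, so both are uncertain as separate genes.

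The other neighbours were measured mainly in serum. Lsp1, an actin-binding protein of leukocytes, rose in −E−N against −E cells in FCS/LIF by 1.49 ± 0.24 (adjusted p = 0.00392), from 2.52 ± 0.580 to 7.08 ± 1.31 CPM. In the same comparison Tnnt3 (1.04 ± 0.26, adjusted p = 0.0229) and Tnni2 (1.29 ± 0.28, adjusted p = 0.0128), troponins of fast muscle, Syt8 (0.55 ± 0.33), a synaptotagmin, the non-coding Gm33148 (0.43 ± 0.47) and Th, the tyrosine hydroxylase (0.10 ± 0.25), did not pass. None of these 6 exceeded 10 CPM in a library. In 2i/LIF they were below the filter of 20 counts and were not tested.

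**Figure D4:**
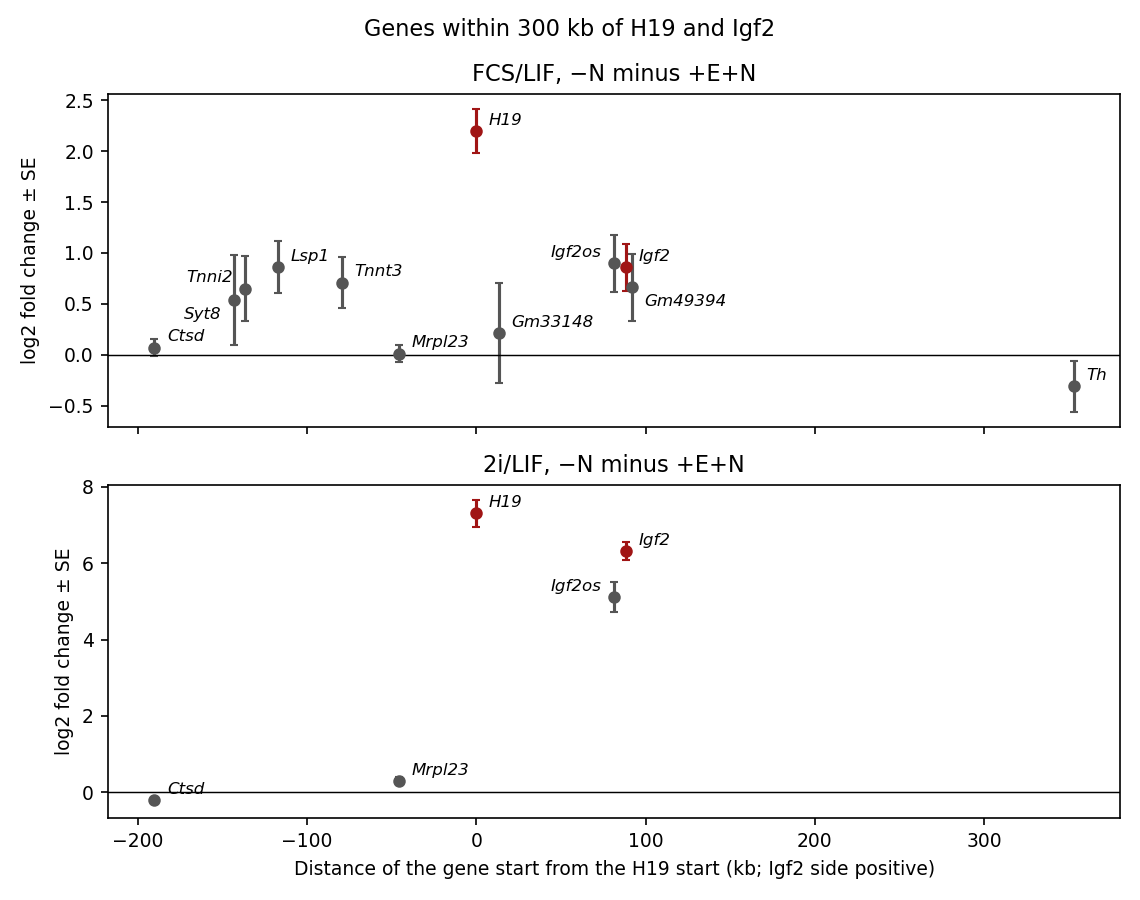
Log2 fold change of −N minus +E+N (bars are 1 SE) for H19, Igf2 (red) and the neighbouring genes that passed the filter, by distance of their start from the H19 start in kb, in FCS/LIF (upper panel) and 2i/LIF (lower panel, another scale). In 2i/LIF H19, Igf2 and Igf2os lie above 5 while Mrpl23 and Ctsd lie within 0.3 of 0.

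Imprinted genes of other domains were compared next, from a list of 44. In −N minus +E+N, 5 of 38 tested members were called higher and 0 lower in 2i/LIF, where 1.61% of all genes were called higher. In FCS/LIF 1 of 42 was higher and 1 lower, where 0.0767% of all genes were called higher. The median log2 change of the list was 0.10 in 2i/LIF and 0.11 in FCS/LIF, against 0.00 and −0.01 for all genes. With the replicate block 9 were higher in 2i/LIF. In −E−N minus −E, 14 of 38 were higher in 2i/LIF, where 6.9% of all genes were, and 8 of 42 in FCS/LIF, where 3.52% were, with medians of 0.59 and 0.11. The 14 include Slc22a3, which passed the filter in 2i/LIF through the NrKO libraries alone, so its call there is no test. The 8 include Airn, which had few counts and may have passed the filter in FCS/LIF in the same way. By edgeR 0 were called lower in either medium without the replicate block, and with it 17 were higher and 1 lower in 2i/LIF (Grb10, an adaptor of insulin-type receptors, −0.60 ± 0.11, adjusted p = 8.34e-04). After Dox removal in FCS/LIF, 10 of 42 rose in NrKO cells, where 10.1% of all genes were called in either direction, and 6 rose and 1 fell in EKOiE cells, where 5.76% were. In 2i/LIF 8 of 38 rose in NrKO cells, where 6.76% of all genes were called, and 0 in EKOiE cells, where 1.55% were. With the block these counts were 11 and 1, against 11.3% and 4.15% of all genes. Most of the list did not pass in the line contrast with Dox.

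Mest, an imprinted gene of the hydrolase family, was higher in NrKO cells in both media and with or without Dox. Its log2 change was 1.67 ± 0.09 (adjusted p = 1.39e-04) in FCS/LIF and 1.27 ± 0.21 (adjusted p = 0.00221) in 2i/LIF for −N minus +E+N, and 1.78 ± 0.09 and 1.32 ± 0.20 for −E−N minus −E. Peg10, a placental gene derived from a retrotransposon, stood at 595 ± 82.6 CPM in +E+N and 1669 ± 412 CPM in −N cells in FCS/LIF, and at 14.5 ± 3.67 and 358 ± 25.0 CPM in 2i/LIF, where it rose by 4.62 ± 0.50 (adjusted p = 1.24e-04). Its neighbour Sgce, a sarcoglycan, rose in −E−N against −E by 1.57 ± 0.25 in FCS/LIF and 3.08 ± 0.49 in 2i/LIF (adjusted p = 0.00392 and 5.48e-04). Slc22a3, a transporter of organic cations, had 0, 0 and 3 counts in +E+N and 0, 3 and 1 in −E in 2i/LIF, against 90, 83 and 68 counts in −N libraries. It had 271, 266 and 422 counts in −E−N libraries. In 2i/LIF Slc22a3 passed the filter through the NrKO libraries alone, so any call of it in the line contrasts there is no test. Ascl2, a trophoblast transcription factor that is also in the trophectoderm list, was higher in −E−N than in −E by 0.66 ± 0.08 in FCS/LIF and 2.09 ± 0.38 in 2i/LIF (adjusted p = 0.00116 and 0.00123). In FCS/LIF it fell in −E against +E+N by 0.71 ± 0.08 (adjusted p = 4.95e-04). There the −E−N libraries (27.5 and 25.9 CPM) overlapped those of +E+N (28.6 and 26.0 CPM).

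Other imprinted genes were called in 1 medium. In 2i/LIF, −E−N minus −E was 3.31 ± 0.23 for Peg3, a zinc finger protein, 2.05 ± 0.26 for its neighbour Zim1, 1.95 ± 0.30 for Cdkn1c, a cell cycle inhibitor, 1.54 ± 0.29 for Rtl1 and 1.44 ± 0.16 for Mirg of the Dlk1 domain. In FCS/LIF it was 2.53 ± 0.47 for Airn, the antisense RNA of Igf2r, at no more than 0.903 CPM as a group mean. At so low a level Airn may have passed the filter through the group where it is high alone, so its call is no test. Phlda2, a placental growth regulator, was named after its value was seen. It was the 1 member called lower in −N against +E+N in FCS/LIF (log2 change −1.07 ± 0.13, adjusted p = 0.00959). Between media, 20 of 42 members were lower and 2 higher in 2i/LIF in +E+N cells, where 17.5% of all genes were lower, with a median log2 change of −0.89 against 0.01 for all genes.

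**Figure D5:**
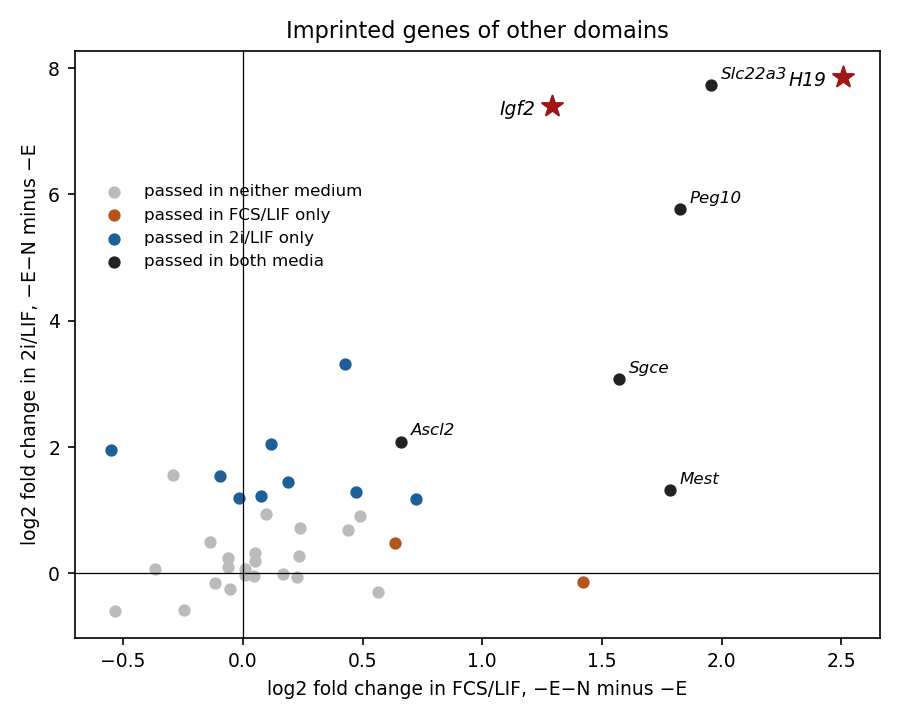
Log2 fold change of −E−N minus −E in FCS/LIF (horizontal) and 2i/LIF (vertical) for the 38 imprinted genes of other domains tested in both media, coloured by where they passed the call limits, with H19 and Igf2 as red stars. The 5 genes that passed in both media (black) are named. The value of Slc22a3 in 2i/LIF rests on 0, 3 and 1 counts in the −E libraries. This gene passed the filter there through the NrKO libraries alone, so its call is no test.

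Of 22 genes for insulin-like ligands, receptors and binding proteins, 14 were tested in 2i/LIF and 16 in FCS/LIF. In −N minus +E+N 1 was higher and 1 lower in 2i/LIF, where 3.65% of all genes were called, or 1 and 2 with the replicate block. In FCS/LIF 0 were called by edgeR, where 0.173% of all genes were and 2550 had an unadjusted p under 0.05. In −E−N minus −E 2 were higher and 2 lower in 2i/LIF (13.1% of all genes called), or 6 and 2 with the block (17.7%), and 3 were higher in FCS/LIF (5.05%). After Dox removal in FCS/LIF 7 rose in NrKO cells (10.1% of all genes called) and 2 in EKOiE cells (5.76%). In 2i/LIF 1 rose in NrKO cells (6.76%) and 0 in EKOiE cells (1.55%), and under the block 3 rose and 1 fell in NrKO cells (11.3%) and 1 rose and 1 fell in EKOiE cells (4.15%). Igf1r, the signalling receptor for Igf2, stood at 26.3 ± 2.38 CPM in +E+N and 30.6 ± 6.26 CPM in −N cells in FCS/LIF, and at 8.36 ± 0.988 and 8.63 ± 0.768 CPM in 2i/LIF. It was called in −E−N minus −N in FCS/LIF (0.64 ± 0.13, adjusted p = 0.00613), and in −E−N minus −E in 2i/LIF the change of 0.86 ± 0.22 (adjusted p = 0.0109) passed with the block (0.88 ± 0.15, adjusted p = 3.53e-04). Igf2r, the imprinted receptor that clears Igf2, lay between 114 and 162 CPM as a group mean and was called in none of the 8 comparisons between states by edgeR.

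Irs2, an adaptor below the receptor, rose in −E−N against −E by 0.87 ± 0.12 in FCS/LIF and 1.39 ± 0.16 in 2i/LIF, and Igfbp3, a binding protein, by 0.79 ± 0.08 and 0.83 ± 0.20. Igfbp4 rose by 1.15 ± 0.15 in FCS/LIF. Igfbp7 fell by 3.33 in both line contrasts in 2i/LIF, to 0.160 ± 0.0934 CPM in −N cells, and Igfbp2 fell by 0.94 in −E−N against −E cells there (adjusted p = 0.00946). In FCS/LIF the Igfbp2 change in that contrast was 0.39 ± 0.07 and was not called, and after Dox removal in NrKO cells it rose by 0.82 ± 0.07 (adjusted p = 8.89e-05). Igf1, the other ligand, did not exceed a group mean of 0.592 CPM.

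Factors that keep imprints and DNA methylation were then listed, 21 in all, of which 20 were tested in each medium. In −N minus +E+N 2 were higher in 2i/LIF (3.65% of all genes called), or 3 with the replicate block (7.77%), and 0 were called in FCS/LIF by edgeR (0.173%). In −E−N minus −E 3 were lower in FCS/LIF (5.05%), and 2 were higher and 3 lower in 2i/LIF (13.1%), or 2 and 4 with the block (17.7%). After Dox removal in FCS/LIF 4 fell in EKOiE cells (5.76%) and 6 in NrKO cells (10.1%). In 2i/LIF 2 rose in EKOiE cells (1.55%), with or without the block, and 1 rose and 3 fell in NrKO cells (6.76%), or 2 and 3 with the block (11.3%). Ctcf, the insulator protein, changed by −0.01 ± 0.06 in FCS/LIF and 0.09 ± 0.06 in 2i/LIF between +E+N and −N cells, and Dnmt1, the maintenance methyltransferase, by 0.02 ± 0.07 and −0.05 ± 0.08. Neither gene was called in any comparison between states. Zfp57, which protects methylated imprints, fell after Dox removal in FCS/LIF by 1.56 in EKOiE and 1.68 in NrKO cells (adjusted p = 9.83e-07 and 3.61e-07), from 233 ± 5.09 to 80.2 ± 1.86 CPM and from 180.4 ± 5.12 to 56.1 ± 0.362 CPM. Between −N and +E+N its log2 change was −0.39 ± 0.05 in FCS/LIF (adjusted p = 0.0121) and −0.15 ± 0.11 in 2i/LIF (adjusted p = 0.473).

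Dppa3, which guards methylation in the zygote, rose in −N against +E+N in 2i/LIF by 2.08 ± 0.35 (adjusted p = 0.00261) and Dnmt3b, a de novo methyltransferase, by 0.79 ± 0.12 (adjusted p = 0.00119). The dioxygenases Tet1 and Tet2 fell in −E−N against −E, by 1.10 and 0.90 in FCS/LIF and by 1.02 and 1.25 in 2i/LIF, and Zfp42 fell by 1.67 and 1.06. The microRNA let-7 is known to bind H19 RNA. Of 9 genes measured of the let-7 axis, Lin28a, the RNA-binding inhibitor of let-7 processing, was called higher in −N against +E+N in 2i/LIF (1.07 ± 0.20, adjusted p = 0.00465) and in −E−N against −E (1.57 ± 0.20, adjusted p = 9.72e-05), and 0 were called in these contrasts in FCS/LIF by edgeR. The shares of all genes called were 3.65% and 13.1% in 2i/LIF and 0.173% and 5.05% in FCS/LIF, and with the replicate block 2 of the 9 were higher in −E−N against −E in 2i/LIF. After Dox removal in FCS/LIF 2 rose in EKOiE cells (5.76% of all genes called) and 1 in NrKO cells (10.1%). In 2i/LIF it was 0 (1.55%) and 1 (6.76%), or 1 (4.15%) and 2 (11.3%) with the block.

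Markers of other cell types that the cultures could hold were measured beside H19 and Igf2, since in bulk RNA fewer cells of a type and less RNA per cell cannot be told apart. The summed level of 12 trophectoderm markers lay between 126 and 146 CPM in +E+N, between 116 and 132 CPM in −E and between 190 and 198 CPM in −N libraries in 2i/LIF, and reached 354 to 562 CPM in −E−N. In FCS/LIF it lay between 461 and 528 CPM in +E+N, 590.4 and 788 CPM in −E, 886 and 1177 CPM in −N and 1598 and 2436 CPM in −E−N libraries. In −N minus +E+N 4 of 10 tested markers were higher in 2i/LIF (3.65% of all genes called), or 5 with the replicate block (7.77%), and 0 of 12 were called in FCS/LIF by edgeR (0.173%). In −E−N minus −E 7 were higher and 2 lower in 2i/LIF (13.1%) and 10 higher in FCS/LIF (5.05%). Dox removal in EKOiE cells gave 0 calls in 2i/LIF by edgeR (1.55%), or 1 lower with the block (4.15%), and 1 higher and 1 lower in FCS/LIF (5.76%). Dox removal in NrKO cells raised 7 and lowered 1 in 2i/LIF (6.76%), or 8 and 2 with the block (11.3%), and 3 rose in FCS/LIF (10.1%). Without replicate 3 of −E−N the 8 calls in NrKO cells in 2i/LIF were 5, where 4.15% of all genes were called. Krt8 and Krt18, keratins of simple epithelia, rose in −N against +E+N in 2i/LIF by 2.45 ± 0.26 and 2.78 ± 0.23. Eomes, a T-box factor of the trophoblast, and Tead4, a lineage factor, went the other way in 2i/LIF, falling in −E−N against −E (−2.51 ± 0.31 and −1.09 ± 0.11), where they were the 2 markers called lower, and in FCS/LIF Tead4 rose in that contrast (0.94 ± 0.16). Cdx2, the lineage factor, stood at 1.44 ± 1.02 CPM in +E+N and 47.4 ± 6.24 CPM in −E−N cells in 2i/LIF. No marker of this list was at 0 in a whole group, and its part in the levels of H19 and Igf2 was not tested.

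The summed level of 14 primitive endoderm markers in 2i/LIF lay between 67.2 and 72.6 CPM in +E+N, 36.0 and 39.4 CPM in −E, 32.2 and 35.4 CPM in −N and 45.8 and 64.9 CPM in −E−N libraries. In −N minus +E+N there, 1 of 8 tested members was called (3.65% of all genes called), Lama1, a laminin chain, which fell by 1.90. With the replicate block it was 2 (7.77%), both lower. In −E−N minus −E 3 were higher (Foxa2, Lamb1 and Pdgfra) and 1 lower (13.1%), or 4 and 2 with the block (17.7%). Dox removal raised 2 and lowered 1 in NrKO cells (6.76%), or 4 and 1 with the block (11.3%). In EKOiE cells it lowered 1 (1.55%), with or without the block. In FCS/LIF the summed level lay between 430.3 and 800.2 CPM, with Ttr at 0 in all groups but −E−N in FCS/LIF. Of 11 members tested there, 0 were called in −N minus +E+N by edgeR (0.173%) and 2 were lower in −E−N minus −E (5.05%). After Dox removal 4 rose in NrKO cells (10.1%) and 2 in EKOiE cells (5.76%). The 10 mesoderm markers summed to between 24.8 and 78.6 CPM in FCS/LIF, highest in −E−N. In 2i/LIF they summed to between 10.6 and 20.0 CPM, and −E−N held both the lowest and the highest library. Msgn1 or Foxf1 was at 0 in each 2i/LIF group. The 9 fibroblast markers summed to between 12.2 and 24.9 CPM in 2i/LIF and between 9.10 and 19.4 CPM in FCS/LIF. Summed pluripotency markers lay between 5958 and 6289 CPM in +E+N and between 4837 and 5283 CPM in −N libraries in 2i/LIF, and fell to between 2410 and 3184 CPM in −E−N.

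The genes whose log2 CPM ran most like H19 over the 20 libraries, among 11737 others with a mean of at least 100 counts, were Peg10 (r = 0.99), Igf2os (r = 0.98), Lgals1 (r = 0.97), Igf2 (r = 0.96) and Anxa3 (r = 0.96). For Igf2 they were Fam120b (r = 0.99), Krt18 (r = 0.98), Slc40a1 (r = 0.97), Ammecr1 (r = 0.97) and Kitl (r = 0.97), and H19 ranked 17th. These correlations describe points that share 8 groups and their media. Lgals1, a galectin, ran from 35.7 ± 5.26 CPM in +E+N in 2i/LIF to 391 ± 70.7 CPM in −E−N in FCS/LIF. Fam120b ran from 5.30 ± 0.220 CPM in −E in 2i/LIF to 18.1 ± 0.332 CPM in −E−N in FCS/LIF, a much smaller range than that of Igf2.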

How the data were processed

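RNA-seq of 20 libraries was used. ChIP-seq libraries were not analysed here. According to the methods, the authors aligned stranded paired-end poly-A reads to mm10 with STAR and made an expected count per gene with RSEM. These estimated counts and the TPM values from RSEM were deposited by the authors, with no normalization of the counts between libraries. Versions, annotation and strand setting are not given in the sources used here. RSEM divides reads shared by overlapping genes by estimation.

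Of 54146 gene IDs, 54079 matched GENCODE vM21 (mm10). Rounded estimated counts entered edgeR 4.0.16 (R 4.3.3), with TMM scaling, the quasi-likelihood test and 1 fit over the 4 states of each medium. A gene was kept if every replicate of some state had 20 counts or more, which left 15636 in FCS/LIF and 14355 in 2i/LIF. Comparisons between media used all 20 libraries (16147 genes). Calls required a Benjamini-Hochberg adjusted p under 0.01 and a fold change over 1.5, and a difference of responses at the adjusted p alone. CPM values were scaled by TMM over the 20 libraries and are given as mean ± SD. SE is the log2 fold change divided by the root of its F statistic, and 95% intervals are 1.96 SE either side. Values of single libraries with few counts carry counting error beside the spread between replicates.

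H19, Igf2 and the gene lists were chosen with earlier results of these data known. Outside the cell type markers, the text names list members called in both media in one direction in −N minus +E+N or −E−N minus −E. Then come up to 6 of each list called in 1 medium by size, and Igf1r, Igf2r, Ctcf, Zfp57 and Dnmt1 in any case. Cell type markers were not named by this rule, and Krt7 and Klf4 met it without being named above. Of 11 names listed for the let-7 axis 9 had a row. In 2i/LIF same-numbered libraries deviated together from their group means (correlations between 0.128 and 0.593 in every pair), so the numbers were taken to pair them, and the blocked value is given where it changes a call of H19 or Igf2 or the count of calls in a list.

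No replicate pair was within sampling noise (chi-square over genes, 4.28 to 19.7 per degree of freedom). The fit was tested on simulated data, where 200 of 200 genes changed by a log2 fold of 2 were called in −N minus +E+N in FCS/LIF over 15299 genes, with 2 false calls. The simulation gave every gene the same dispersion and changed only genes with many counts. It does not cover few counts, a larger spread or smaller changes. The alternatives were DESeq2 1.42.0, its size factors, no filter (at least 1 count), log2(TPM + 1) or log2(TPM + 0.1) tested with limma 3.58.1, the replicate block and leaving out each library.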

Additional observations from a re-analysis of the deposited data

How the results depend on the processing

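Of the values for H19 and Igf2 under alternatives other than leaving out a library, 125 kept their direction and their side of the threshold (or, untested, moved by less than 1 SD), and 15 did not. With 1 library left out, 220 values, counts for 2 of the lists included, kept both and 4 did not. Both genes were called in −E−N minus −N in FCS/LIF without the filter (0.82 and 0.68) and with the replicate block (0.83 ± 0.05, adjusted p = 3.30e-06, and 0.69 ± 0.06, adjusted p = 2.71e-05). Same-numbered FCS/LIF libraries correlated in their deviations at 0.077 to 0.462 over 2 replicates, and the labels do not tie the numbers to a shared culture. H19 in −E minus +E+N in 2i/LIF was called by DESeq2 (1.32) and without the filter (1.31), and ranged from 1.00 to 1.53 with 1 library left out. With limma on log2(TPM + 1), −N minus +E+N in 2i/LIF was 6.20 for H19 and 4.61 for Igf2 and −E−N minus −E was 5.84 for Igf2, and with log2(TPM + 0.1) the Igf2 value was 6.02, where the pseudocount is large against the baseline. The difference between media in the response of EKOiE cells passed for H19 without the filter (−0.78), and for Igf2 it was 0.087 with limma on log2(TPM + 1), 0.033 without replicate 1 of −E in FCS/LIF and 0.017 without replicate 3 of −E in 2i/LIF, in a range from −0.43 to 0.033. That of NrKO cells passed without the filter (−1.05 for H19 and −0.84 for Igf2) and, for Igf2, with the replicate block (−0.79). The cause of these changes was not tested. No paired fit was made between media, whose numbers mark no shared sample.

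Counts of called genes moved by over 1.5 times as follows. In FCS/LIF, −N minus +E+N went from 27 to 264 (DESeq2), 548 (no filter), 305 (block), 9 and 7 (limma with 1 and 0.1), and −E−N minus −E from 790 to 1571 (no filter), 1265 (block), 482 and 467 (limma). Without the filter −E minus +E+N went from 901 to 1631 and −E−N minus −N from 1573 to 2556, and limma with 1 gave 553 for the former. In 2i/LIF, −E minus +E+N went from 223 to 447 (DESeq2), 401 (no filter), 596 (block), 136 and 146 (limma), −N minus +E+N from 524 to 860, 828, 1115, 313 and 309 in the same order, and −E−N minus −N from 970 to 1622 (block). The response differences went from 171 to 532, 706, 728 and 280, and from 281 to 706, 926, 981 and 467 (DESeq2, no filter, block, limma with 1). At 19 to 57 counts a library, the levels of H19 and Igf2 in +E+N cells in 2i/LIF, and every fold change taken against them, are the least precise values given.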
